A study of Homo sapiens with 6 samples.

Results

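Alu-matching 82-kDa ChAT peaks are chromatin regions recovered with 82-kDa ChAT, the nuclear form of the acetylcholine-synthesizing enzyme choline acetyltransferase, whose DNA holds a match to an Alu repeat, in some over most of the peak and in others over a small part of it. A peak was counted as a member when its hg38 sequence matched, on either strand, a 287-nt Alu copy in an intron of APP on chromosome 21 (blastn, e-value of 1e-05). By this rule there were 405 members among 8270 peaks after vehicle treatment and 646 among 6563 peaks after Aβ treatment, together 1051 of 14833. The peaks came from chromatin immunoprecipitation sequencing of SH-SY5Y cells, a human neuroblastoma line, that stably expressed heterologous 82-kDa ChAT and were differentiated with retinoic acid for 3 days. All cells carried this transgene, and no line without it was sequenced here. The vehicle group received Ham's F-12 medium and the Aβ group received 100 nM oligomeric Aβ, the amyloid-β peptide of Alzheimer disease, for 4 h, each from 3 plates. The protein was precipitated with an in-house antibody against the carboxyl terminus of ChAT. SATB1, a chromatin organizer that binds AT-rich DNA, was precipitated from cells given the same treatments and serves here as the comparison.

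Each protein and treatment had 1 library. Peaks of a library do not replicate a condition, and the treatments were compared without a p-value. Every interval is an exact Clopper-Pearson 95% interval of a share, or a Newcombe interval of a difference between shares, and covers counting error over peaks only. ChAT and SATB1 peaks of a treatment were called against the same input library, so their lists are not independent. The peak lists carry no read totals, and the methods of the study give only a range of sequencing depth for all its samples, so the depth of each library was not compared. The lists hold only peaks that passed the caller's threshold, with a score of −10 times the log10 of the p-value, which ranks peaks within a list and was not compared between libraries as signal.

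Alu is a primate-specific short interspersed element derived from the 7SL RNA gene, and its copies are scattered through introns and gene-rich DNA. Each full copy holds a pair of related arms joined by an A-rich linker and ends in an A-rich tail. The left arm carries an internal RNA polymerase III promoter. The copies differ from each other by scattered substitutions, so a short read from one copy may be placed at another. Because the arms resemble each other, a short piece can align to either, and the best-scoring alignment was used. On the copy used for matching, positions were counted from 1 at the 5′ end of the Alu, and the A-rich linker was taken as positions 114 to 133.

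The best-scored short members that represent each arm and the linker show which pieces of Alu were recovered. The vehicle chromosome 14 member aligned to positions 84 to 136 of the Alu copy with 88.7% identity and had a score of 121.35, and it lay in no annotated gene. The vehicle chromosome 1 member aligned to positions 141 to 181 with 90.2% identity, also scored 121.35 and lay in intron 1 of OTUD7B, which encodes a deubiquitinating enzyme. The Aβ chromosome 6 member aligned to positions 141 to 198 with 82.8% identity and lay in intron 22 of EYS, which encodes an extracellular matrix protein of photoreceptors. Its score of 156.13 was the highest of the Aβ members, and it also overlapped a SATB1 peak found after Aβ treatment. The Aβ chromosome 4 member aligned to positions 13 to 45 with 90.9% identity, scored 137.12 and lay in intron 1 of ZFYVE28, a regulator of growth factor receptor trafficking. The Aβ chromosome 14 linker member aligned to positions 104 to 144 with 86.0% identity, scored 118.57 and lay in the long non-coding RNA gene LINC01588.

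The share of 82-kDa ChAT peaks that matched Alu was 4.90% with vehicle (interval 4.44 to 5.38). With Aβ it was 9.84% (interval 9.13 to 10.6). The difference was 4.95 percentage points (interval 4.10 to 5.81), a ratio of 2.01. To set these shares against the genome, consecutive windows of the median peak length were taken from chromosomes 1 to 22, X and Y, every 20th window was searched by the same rule, and the matching windows were counted. Of the windows of 138 nt, the median vehicle peak length, 10.3% matched, and of the windows of 110 nt, the median Aβ peak length, 9.18% matched. On the same chromosomes, 395 of 7460 vehicle peaks were members (5.29%, interval 4.80 to 5.83), a share below that of the windows. The Aβ peaks held 638 members of 6345 (10.1%, interval 9.33 to 10.8), a share close to that of the windows. This interval lies just above the 9.18% of the windows of 110 nt. For SATB1, 158 of 3065 peaks matched after vehicle treatment (5.15%) and 4495 of 6055 after Aβ treatment (74.2%), so that the Aβ share of the ChAT list was far below that of the SATB1 list of the same treatment. The study names repeat masking in its mapping step, and the part of this step in the shares was not tested.

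The higher share after Aβ treatment was seen in each class of peak length and score examined. Among peaks of up to 100 nt, 4.19% of vehicle peaks and 6.55% of Aβ peaks matched Alu. Among peaks over 100 and up to 150 nt, the shares were 6.62% (220 of 3324) and 13.3% (406 of 3045), the highest of the 3 length classes in both lists. Among longer peaks, they were 3.51% and 7.73%. When each list was divided by score into 4 parts of about equal size, members were scarcest in the part with the highest scores, with 3.19% of vehicle peaks (66 of 2068, interval 2.48 to 4.04) and 6.22% of Aβ peaks (103 of 1657, interval 5.10 to 7.49). The part with the lowest scores held 5.66% and 11.6%, respectively. A part of the vehicle list consists of peaks rich in the pentamer CATTC, a repeat unit of satellite DNA, defined as at least 3 copies per 100 nt on both strands together. Only 12 of 1600 such peaks matched Alu after vehicle treatment and 2 of 330 after Aβ treatment, and without them the shares were 5.89% and 10.3%. Peaks were called multi-copy when over 50% of the 51-nt words in them occurred at more than 1 place in hg38. With these also left out, they were 5.42% and 9.31%, a difference of 3.89 percentage points (interval 2.89 to 4.89).

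**Figure D1:**
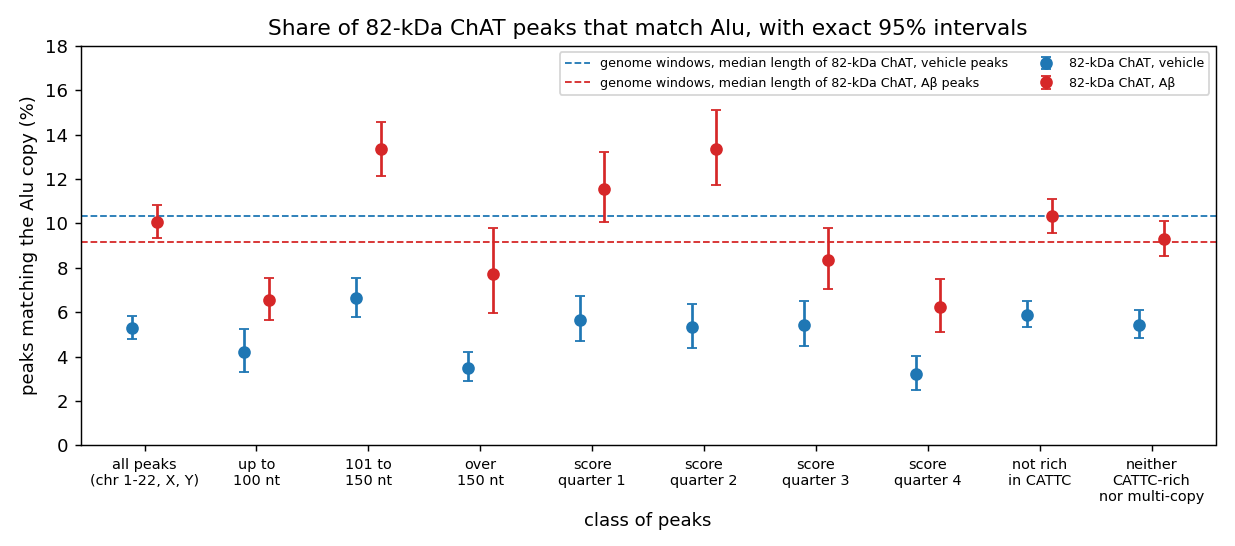
Share of 82-kDa ChAT peaks that match the Alu copy (vertical axis, percent) by class of peak after vehicle (blue) and Aβ (red) treatment. Points are shares, bars are exact 95% intervals and dashed lines are the shares of genome windows of the median peak length (10.3% and 9.18%). The Aβ share is above the vehicle share in every class shown, and the vehicle shares are all below both lines.

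The members mostly covered only a part of an Alu, as nearly all of them were shorter than the Alu copy. After vehicle treatment the best alignment had a median length of 84 nt and a median identity of 83.7%, and after Aβ treatment 87 nt and 83.3%. No member of either list covered both ends of the Alu copy, and 388 of 405 vehicle and 642 of 646 Aβ members were shorter than the copy itself. Alignments ranged from 29 to 223 nt after vehicle treatment and from 27 to 271 nt after Aβ treatment. At the edge of the rule, the weakest members had a bit score of 44.6, and 38 vehicle and 40 Aβ members scored under 50. Just outside it, 132 vehicle and 211 Aβ peaks shared at least 30 nt with an Alu copy found in the genome but did not pass the e-value themselves.

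Members came from the 3′ part of Alu more often than the genome windows did, and vehicle members more often than Aβ members. The midpoint of the alignment fell in the right arm in 71.6% of vehicle members (interval 66.9 to 75.9) and 64.7% of Aβ members (interval 60.9 to 68.4). The difference was −6.90 percentage points (interval −12.5 to −1.08). Among the genome windows that matched Alu, 55.9% of those of 138 nt and 55.7% of those of 110 nt fell in the right arm. Alignments reached the last 20 nt of Alu in 41.7% of vehicle members and 31.1% of Aβ members, a difference of −10.6 percentage points (interval −16.6 to −4.65), compared to 27.4% and 21.9% of the windows. The first 20 nt were reached by 18.5% and 20.6% of members, and by 30.7% and 25.5% of the windows. The most often covered base was position 239 after vehicle treatment, in 52.3% of members, and position 238 after Aβ treatment, in 43.96%. These 2 maxima lie 1 nt apart, in the right arm.

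The linker was covered less often by 82-kDa ChAT members than by Alu-matching SATB1 peaks after Aβ treatment. It was covered whole by 23.7% of vehicle members (96 of 405) and 23.8% of Aβ members (154 of 646), which differed by 0.135 percentage points (interval −5.24 to 5.32). The windows covered it in 30.1% and 24.1% of cases. Alu-matching SATB1 peaks after Aβ treatment covered the linker in 58.6% of cases, 34.8 percentage points more than the Aβ members of ChAT (interval 31.0 to 38.2), and their most often covered base was position 122, inside the linker, in 67.5%. The alignments of these SATB1 peaks were also longer, with a median of 124 nt against 87 nt for the Aβ members of ChAT. The part of this length in the difference was not tested. After vehicle treatment, 18.4% of the 158 Alu-matching SATB1 peaks covered the linker. The difference from the vehicle members of ChAT was −5.35 percentage points, with an interval (−12.2 to 2.45) that includes 0. The right-arm share of Alu-matching SATB1 peaks was 71.5% after vehicle and 63.5% after Aβ treatment. The intervals of both differences from ChAT also included 0. After vehicle treatment, the most often covered base of these SATB1 peaks was position 221, in 57.6%. They reached the last 20 nt in 41.8% of cases, close to the vehicle members of ChAT.

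**Figure D2:**
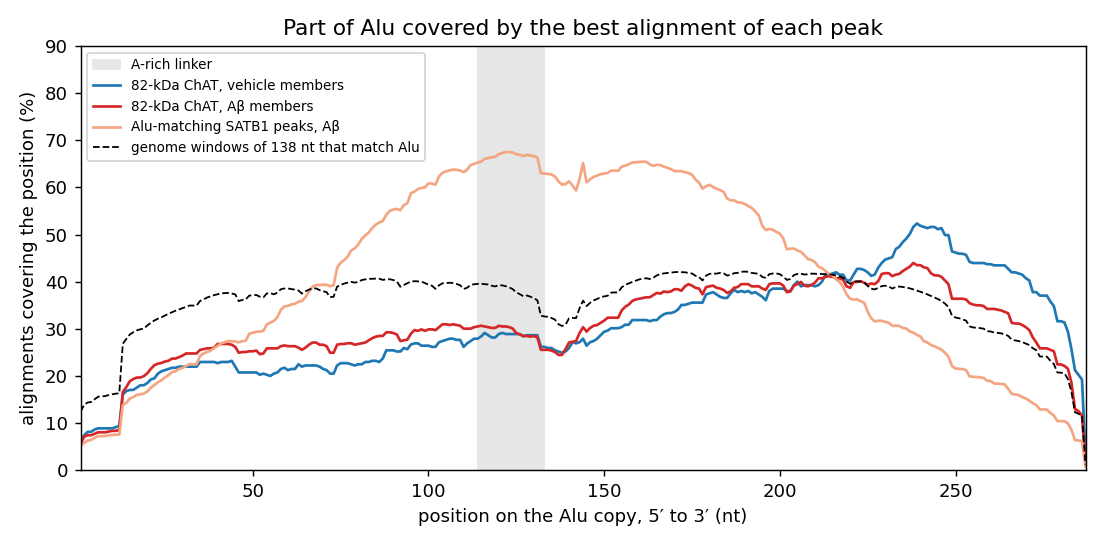
Share of best alignments that cover each position of the Alu copy (vertical axis, percent; horizontal axis, nt from the 5′ end) for the vehicle and Aβ members, for Alu-matching SATB1 peaks after Aβ treatment, and for genome windows of 138 nt that match Alu (dashed). Grey marks the linker. The ChAT curves peak near position 239, with 52.3% of vehicle and 43.96% of Aβ members, whereas the SATB1 curve peaks at position 122 with 67.5%. Alu-matching SATB1 peaks after vehicle treatment, not drawn, were covered most often at position 221 (57.6%).

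When the midpoint of the whole peak was carried onto the Alu copy, 77.04% of vehicle members and 91.5% of Aβ members were centred inside the Alu, a difference of 14.4 percentage points (interval 9.93 to 19.2). Vehicle members were more often centred past the 3′ end, in 17.3% of cases (70 members) against 6.19% (40 members) after Aβ treatment. Those centred before the 5′ start were fewer, at 5.68% and 2.32%. Accordingly, Alu made up at least 50% of the peak in 67.4% of vehicle members and 85.6% of Aβ members. The members centred past the 3′ end had a median G+C content of 40.02% after vehicle and 39.03% after Aβ treatment, compared to 50.6% and 51.5% in members centred inside the Alu after the linker middle. They were multi-copy in 10.0% (interval 4.12 to 19.5) and 7.5% (interval 1.57 to 20.4) of cases, against 33.2% (interval 27.0 to 39.8) and 22.3% (interval 18.3 to 26.8) in the same inside class.

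**Figure D3:**
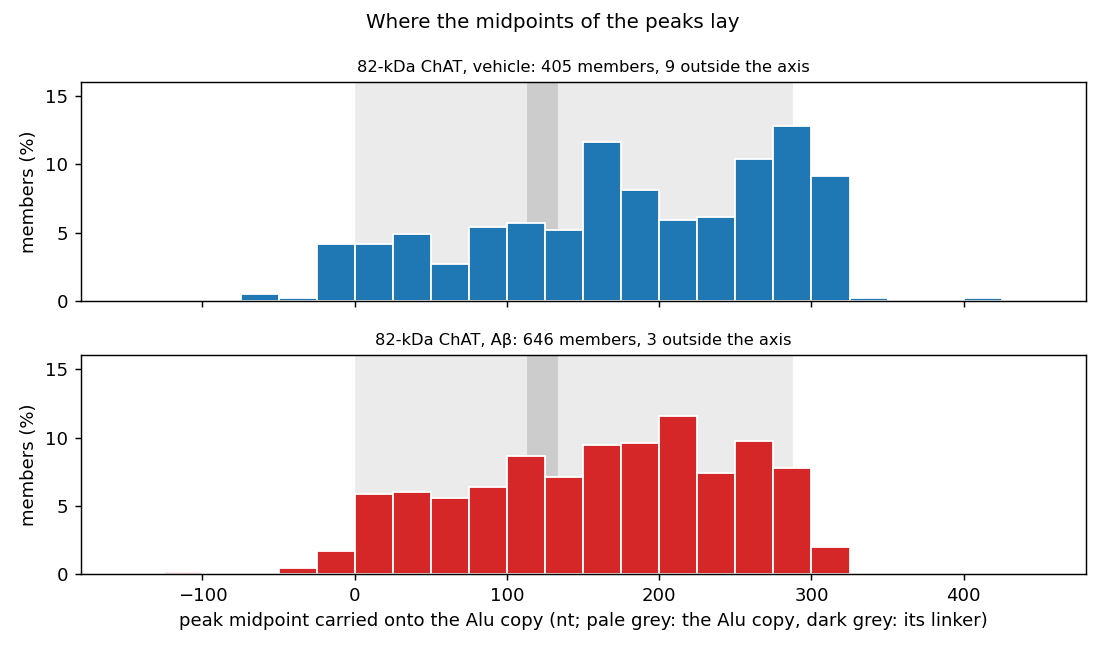
Histograms of peak midpoints carried onto the Alu copy (horizontal axis, nt from its 5′ end, bins of 25 nt; vertical axis, percent of members) for the vehicle and Aβ members. The pale area is the Alu copy and the dark area its linker. The vehicle members form a group at and past the 3′ end that is smaller after Aβ treatment (17.3% against 6.19% past the end).

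Reads from such DNA can belong to several places, so the copy number of the members themselves was counted. After vehicle treatment 28.6% of members were multi-copy (interval 24.3 to 33.3), compared to 23.4% of the other vehicle peaks, and after Aβ treatment 23.1% (interval 19.9 to 26.5), compared to 14.2% of the other Aβ peaks. Alu-matching SATB1 peaks after Aβ treatment were multi-copy in 69.7% of cases. Conversely, 30.1% of vehicle and 30.5% of Aβ members held no 51-mer that occurred elsewhere in the genome, which was so for 2.16% of those SATB1 peaks. Which copy a multi-copy read came from cannot be told from the peak lists.

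The members had somewhat lower median scores than the other peaks of their list, and the Aβ members had a higher median length. The vehicle members had a median score of 65.08 (range 50.60 to 731.33) and the other vehicle peaks 67.59, and the Aβ members had a median of 61.11 (range 50.16 to 156.13) against 63.90. Median lengths were 136 and 138 nt after vehicle treatment and 121 and 109 nt after Aβ treatment. The extreme vehicle scores belonged to very long peaks in which Alu was a small part. The 5 highest on chromosomes 1 to 22, X and Y were 1057 to 3532 nt long with scores of 358.30 to 731.33, and at most 6.29% of each was aligned. Of these, 4 lay on chromosome 21 between 8414828 and 9248977 and the other on chromosome Y at 56834163 to 56835219. The 4 on chromosome 21 also overlapped SATB1 peaks found after vehicle treatment.

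Among the Aβ members the highest scores belonged to peaks of 57 to 166 nt that lay inside genes and touched no annotated exon. Beside the EYS and ZFYVE28 members, these were a 166-nt peak in TSTD3 (chr6:99584148-99584313, score 133.34), a 70-nt peak in intron 9 of NR2C1, which encodes an orphan nuclear receptor (chr12:95043153-95043222, score 118.57), and the LINC01588 member. The Aβ members in the best-scored of the 4 parts had a median length of 76 nt, against 125 nt for the other Aβ members. After vehicle treatment these medians were 141 and 136 nt.

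Members lay in genes about as often as Alu copies in general. Of the members on chromosomes 1 to 22, X and Y, 61.5% lay in an annotated gene with vehicle (243 of 395, interval 56.5 to 66.3) and 63.5% after Aβ treatment (405 of 638, interval 59.6 to 67.2). For the 1122122 Alu copies found on these chromosomes with the same Alu copy, the share was 64.9%. It was 49.4% and 56.8% in the peaks without a match, and 58.4% and 59.0% when CATTC-rich peaks were left out of these. Introns were touched by 59.7% and 62.4% of members. The difference between treatments was 1.96 percentage points for genes (interval −4.06 to 8.06) and 2.64 for introns (interval −3.44 to 8.77), and both intervals include 0.

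Promoters, taken as 2000 nt upstream of a transcription start, were touched by 9.37% of vehicle members (interval 6.68 to 12.7) and 10.97% of Aβ members (interval 8.65 to 13.7). This compared to 6.20% and 7.17% of peaks without a match, and to 7.35% and 7.45% when CATTC-rich peaks were left out of these. The vehicle interval includes the latter share, and the Aβ interval lies above it. The promoter share of all Alu copies was not counted. Exons of any gene were touched by 4.56% of vehicle members (18) and 1.72% of Aβ members (11), a difference of −2.83 percentage points (interval −5.47 to −0.705). Exons of protein-coding genes were touched by 4 vehicle members and 9 Aβ members, 1.01% and 1.41%, so the larger count after vehicle treatment rested on other kinds of genes, among them uncharacterized transcripts under the long chromosome 21 peaks. The share of exons of protein-coding genes among peaks without a match was 3.51% and 4.21%.

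The Alu strand showed no preference beyond that of the genome. The Alu lay on the plus strand in 53.1% of vehicle and 49.5% of Aβ members. Among members inside genes of 1 strand, the Alu was antisense to the gene in 123 of 225 vehicle members (54.7%, interval 47.9 to 61.3) and 193 of 373 Aβ members (51.7%, interval 46.5 to 56.9). For all Alu copies of the genome this was 54.8%. The difference between treatments was −2.92 percentage points (interval −11.1 to 5.32), which includes 0.

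**Figure D4:**
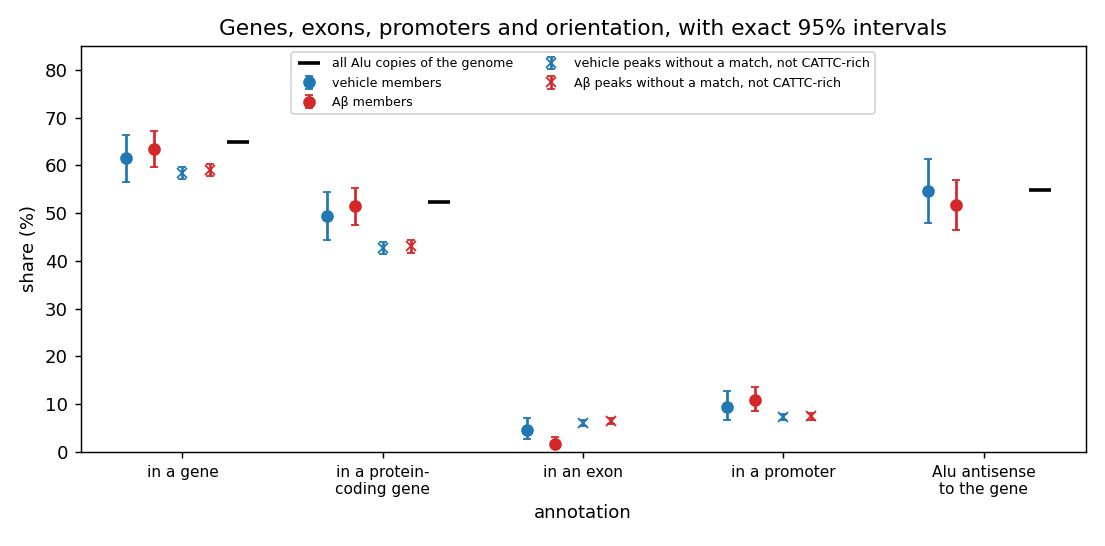
Shares (vertical axis, percent) of members in genes, protein-coding genes, exons and promoters and of Alu antisense to the gene, after vehicle (blue) and Aβ (red) treatment. Circles are members and crosses are peaks without an Alu match that are not rich in CATTC, both with exact 95% intervals, and black bars are all Alu copies of the genome where counted. The member shares in genes (61.5% and 63.5%) are close to the 64.9% of all copies.

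By chromosome, the share of peaks that matched Alu was highest on chromosome 19, the chromosome with most Alu copies for its length (938 per Mb), in both lists. There, 21 of 165 vehicle peaks (12.7%) and 38 of 169 Aβ peaks (22.5%) were members. On chromosome Y, with 155 copies per Mb, they were 1.68% and 3.64%. Across the 24 chromosomes the share and the density of copies had a Pearson r of 0.88 and a Spearman rho of 0.70 after Aβ treatment, and 0.64 and 0.34 after vehicle treatment. Without chromosomes 19 and Y the r values were 0.68 and 0.21. These are descriptions over chromosomes of 1 library each, which also differ in base composition and gene content. Chromosome 15 stood apart in the vehicle list, with 10.6% of 170 peaks against 7.01% of 157 after Aβ treatment, and was, with chromosome X (7.52% and 7.04%), where the Aβ share was not the higher one.

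**Figure D5:**
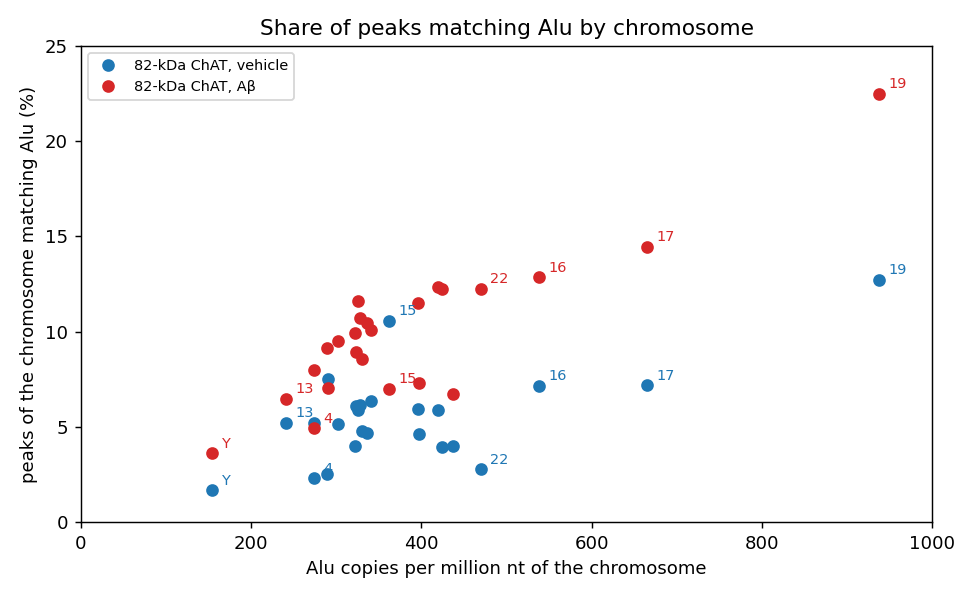
Share of peaks on each chromosome that match Alu (vertical axis, percent) against the number of Alu copies per Mb (horizontal axis), for vehicle (blue) and Aβ (red) peaks, with some chromosomes named. Chromosome 19 lies highest in both lists (12.7% and 22.5%).

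The same places were seldom found after both treatments. Of the vehicle members, 15 overlapped an 82-kDa ChAT peak found after Aβ treatment by at least 1 nt (3.70%, interval 2.09 to 6.04), and of the Aβ members, 10 overlapped a vehicle peak (1.55%, interval 0.745 to 2.83). These shares were 5.68% and 7.40% for peaks without an Alu match. With CATTC-rich and multi-copy peaks left out, they were 3.20% and 1.21% for members and 3.02% and 3.01% for the other peaks. The 404 Alu copies touched by vehicle members and the 644 touched by Aβ members had 8 in common, which were 1.98% and 1.24% of each set.

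In 10 pairs a vehicle member overlapped an Aβ member. Of these, 4 were pairs of longer peaks, of at least 561 nt, on chromosomes 21 and Y and on an unplaced sequence. The other 6 were short and lay in ZMYM4 and KIAA0319L (chromosome 1, where the genes overlap), SNX9 (chromosome 6), MGAT5 (chromosome 2), RGS20 and at places outside genes on chromosomes 16 and X. SNX9 encodes an endocytic sorting nexin, MGAT5 a glycosyltransferase that branches N-glycans, and RGS20 a regulator of G-protein signalling.

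In the chromosome 1 pair, the Aβ peak lay inside the vehicle peak. The vehicle peak aligned to positions 141 to 253 with 74.8% identity and scored 89.05, and the Aβ peak to positions 204 to 246 with 83.7% identity and scored 101.83. At the SNX9 pair, chr6:157775279-157775376 after vehicle (score 78.83) and chr6:157775274-157775374 after Aβ treatment (score 56.61), a SATB1 peak found after vehicle treatment overlapped as well.

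Overlap with SATB1 peaks of the same treatment was found for 28 vehicle members (6.91%, interval 4.64 to 9.84) and 28 Aβ members (4.33%, interval 2.90 to 6.20). The other ChAT peaks overlapped SATB1 in 9.47% and 3.70% of cases. The overlapping SATB1 peak also matched Alu for 23 of the 28 vehicle members and 25 of the 28 Aβ members, out of 158 and 4495 Alu-matching SATB1 peaks. Of the 644 Alu copies under Aβ members, 22 also held an Alu-matching SATB1 peak found after Aβ treatment, which was 3.42% of the ChAT set and 0.490% of the 4488 copies in the SATB1 set. Without multi-copy members, 14 vehicle and 16 Aβ members remained in the overlap. The best-scored of the Aβ members that overlapped SATB1 were in EYS, in intron 3 of AGPAT3, an acyltransferase of phospholipid synthesis (chr21:43962155-43962205, score 110.74), and in intron 10 of CCDC171 (chr9:15685539-15685647, score 93.37), beside a long chromosome 21 peak (score 104.27).

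Members were found in 198 protein-coding genes after vehicle treatment and in 345 after Aβ treatment, which were 0.989% and 1.72% of the 20020 annotated protein-coding genes. Genes with a member were long, with a median length of 97537 and 111385 nt against 27420 nt for all protein-coding genes. No gene held more than 2 members in a list, and 7 genes held 2 after vehicle and 8 after Aβ treatment. After vehicle treatment these included BCAS3, C11orf80, CACNA1A and IL1RAPL1, and after Aβ treatment ADAMTS10, CACNA1A, PDE4D, PHKB and SEPTIN9. Among their members, those in C11orf80 intron 6 and PHKB intron 1 were multi-copy (100% of their 51-nt words). CACNA1A, the pore-forming subunit of P/Q-type calcium channels at presynaptic terminals, held 2 after both treatments, as did TYW1, a tRNA modification enzyme with a related copy, TYW1B, on the same chromosome. TYW1 lies outside the rule for named genes and was named after its values were seen.

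The members of CACNA1A (chr19, minus strand) lay at different places by treatment. After vehicle treatment they were in intron 3 (chr19:13386098-13386207, score 66.11) and intron 24 (chr19:13268367-13268527, score 53.93). After Aβ treatment both were in intron 3, at chr19:13392969-13393063 (score 66.26) and chr19:13400794-13400943 (score 61.87), and the nearest members of the treatments were 6762 nt apart. In IL1RAPL1, a synaptic adhesion protein linked to intellectual disability, the vehicle members lay in intron 5 (chrX:29644681-29644839, score 113.71) and intron 2 (chrX:28960750-28960899, score 55.75). In PDE4D, a cyclic AMP phosphodiesterase, the Aβ members lay in intron 5 (score 77.22) and intron 1 (score 54.95). The 2 Aβ members of SEPTIN9, a cytoskeletal GTPase, were both in intron 2, at chr17:77314283-77314346 and chr17:77315361-77315440, and both Alu pieces were antisense to the gene.

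Genes with members after both treatments numbered 17, of 198 with vehicle and 345 with Aβ. For 82-kDa ChAT peaks of any kind they numbered 660, of 2108 and 2232. In 5 of them, KIAA0319L, MGAT5, RGS20, SNX9 and ZMYM4, the members overlapped. In the other 12 the nearest members of the treatments were 6762 to 405189 nt apart, with a median of 59046 nt. They were BCAS3, CACNA1A, CCDC171, ELAPOR2, GTF2IRD1, MED13, PIK3CB, RAP1GAP2, RERE, RYR2, SPIRE1 and TYW1. RYR2, a calcium release channel of the endoplasmic reticulum, held a vehicle member in intron 21 (chr1:237501818-237501937, score 74.69) and an Aβ member in intron 1 (chr1:237195457-237195540, score 58.46), which were 306278 nt apart. PIK3CB, a catalytic subunit of phosphoinositide 3-kinase, held both in intron 2, at chr3:138784183-138784351 after vehicle (score 77.79) and chr3:138776080-138776195 after Aβ treatment (score 62.69). RERE, a transcriptional co-repressor, held a vehicle member in intron 1 and an Aβ member in intron 12, the pair farthest apart. The vehicle members of MED13, RAP1GAP2, RERE and SPIRE1 were multi-copy, with 66.7% to 95.1% of their 51-nt words at more than 1 place.

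At promoters and exons of protein-coding genes, the best-scored vehicle members lay in the promoters of CCDC40 (chr17:80057025-80057205, score 97.63), GLI1 (chr12:57458116-57458181, score 93.99), ATP8B3 (score 88.65), MCU (score 78.83) and VPS35L (score 78.09). GLI1 is a transcription factor of Hedgehog signalling and MCU the mitochondrial calcium uniporter. After Aβ treatment they lay in the promoters of ADAMTS10 (chr19:8597909-8597964, score 110.74), ARL14EP (score 100.53), IFT81 (score 86.70) and TMOD4 (score 81.37) and in an exon of SNAPC1 (chr14:61796053-61796161, score 80.34), a subunit of the complex that activates small nuclear RNA genes. Some of these promoters belong to transcripts that start inside the gene, such as those in intron 18 of ATP8B3 and intron 6 of ADAMTS10. The GLI1 promoter member also lay in INHBE. The GLI1, VPS35L and ARL14EP members were multi-copy, with 100% of their 51-nt words at more than 1 place in hg38. Whether their reads came from these promoters cannot be told. The 4 vehicle members on exons touched PPIL4, CTSK, ITLN1 and PGBD4, and the 9 Aβ members touched SNAPC1, GTF2IRD1, ATXN2, RPL7L1, CPM, SPRYD7, OCIAD2, PCSK7 and OR2A1. PCSK7 is a proprotein convertase and ATXN2 an RNA-binding protein.

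In 4 gene lists that bear on Alzheimer disease, cholinergic cells and retinoic acid, at most 1 gene per list and treatment held a member. Where 1 gene did, it was 4.76% of the APP list, 5% of the risk list and 5.88% of the retinoic acid list, beside 0.989% (vehicle) and 1.72% (Aβ) of all protein-coding genes, and each share rests on that single gene. Among 21 genes of APP processing and binding, ADAM17, an α-secretase, held 1 after vehicle treatment (intron 1, chr2:9550702-9550820, score 52.04) and NAE1, which binds the APP cytoplasmic tail, held 1 after Aβ treatment (intron 6, chr16:66822886-66823029, score 66.24). The ADAM17 score was below the median of the vehicle members and the NAE1 score above that of the Aβ members. The ADAM17 match was near the edge of the rule, with 32 nt aligned, 26.9% of the peak, and a bit score of 45.5. Among 20 Alzheimer risk genes, MAGI2, a synaptic scaffold, held 1 after Aβ treatment (intron 1, chr7:79200294-79200437, score 73.25) and none held a member after vehicle treatment. Of 23 cholinergic genes none held a member in either list, and of 17 genes of retinoic acid signalling and metabolism 1 did, ALDH1A2, which makes retinoic acid, after Aβ treatment (score 53.91), in a region where it overlaps AQP9.

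Of the 5 lists, the broadly drawn list of synaptic adhesion genes had the largest share with members. Not every gene in it is an established synaptic adhesion gene, LRP1B and CSMD1 among them. These genes are 1899594 and 2059620 nt long. Of the 45 genes listed, 3 held members after vehicle treatment, NLGN4X (intron 1, score 53.93), TENM2 (intron 8, score 81.30) and IL1RAPL1. The NLGN4X member was multi-copy, with 78.45% of its 51-nt words at more than 1 place in hg38. After Aβ treatment 4 genes held members, CDH13 (intron 2, score 53.76), LRP1B (intron 86, score 62.50), CSMD1 (intron 5, score 77.22) and PTPRS (score 59.74). These counts are 6.67% and 8.89% of the list, beside the 0.989% and 1.72% of all protein-coding genes. An 82-kDa ChAT peak of any kind was found in 24 and 29 genes of the list, beside 2108 and 2232 of all 20020 protein-coding genes, and the lengths of the genes were not adjusted for. No gene of this list held members after both treatments.

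The first of the short patterns searched was an A/T-rich one of the kind SATB1 is known for. It is a C between a run of 3 to 6 bases that are A or T and another of 3 or more such bases, on either strand. It was present in 69.6% of vehicle members (interval 64.9 to 74.1) and 54.5% of Aβ members (interval 50.6 to 58.4), compared to 67.6% and 65.4% of peaks without a match. Of genome windows of the median member length with at least 30 nt of an Alu copy, 67.1% of those of 136 nt and 59.8% of those of 121 nt held it, and of all genome windows 78.9% and 75.7%. The interval of the vehicle members includes the share of the Alu-holding windows, and that of the Aβ members lies below it. Inside the aligned part, 33.3% of vehicle and 33.4% of Aβ members held it, and 70.1% and 67.5% of those matches lay within 10 nt of the linker. Members that covered the linker held the pattern in 90.6% (87 of 96) and 86.4% (133 of 154) of cases, and the others in 63.1% and 44.5%. The linker was chosen for its A+T share, so matches at it follow largely from that choice. Alu copies that cover the linker were not set beside these shares. Members centred past the 3′ end held the pattern in 95.7% (67 of 70) and 85% (34 of 40) of cases, where the A-rich tail and the DNA beyond it lie.

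TCCAT or TCCCAT, on both strands, was present in 27.2% of vehicle and 17.6% of Aβ members, compared to 44.4% and 33.3% of peaks without a match. The Alu-holding windows had 20.1% and 17.5%. TCCAT is contained in repeats of CATTC when these follow each other, so the 2 counts are related. The hexamer AGGTCA, a nuclear receptor half-site that was added after the data were seen, was present in 15.8% of vehicle members (interval 12.4 to 19.7) and 20.6% of Aβ members (interval 17.5 to 23.9), against 4.91% and 4.50% of peaks without a match. In the Alu-holding windows it was present in 21.5% and 19.6%, and in all windows in 8.47% and 7.53%. A match to these letters describes the sequence and does not show that a factor was bound.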

How the data were processed

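The members, gene lists and patterns were chosen with earlier results of these data known. Per the labels and the methods of the study, reads of about 50 nt were mapped to hg38 with BWA under default parameters and masking of repeats. The methods name both single-read lanes and paired-end reads, and which applied was not settled here. MACS peaks below p = 1e-05 were kept by the authors unless the matching input also showed a significant peak, and the deposited score of each peak is −10 times the log10 of its p-value. No further filter on reads with several placements is described in the sources used here.

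Peak sequences were read from hg38 with pysam 0.24.0 and searched with blastn (BLAST+ 2.17.0, e-value 1e-05, database size set to 1000000) against the Alu copy. The best-scoring alignment gave the part and strand. Windows of the genome were searched in the same way. Alu copies of the genome came from a search of whole sequences with the same Alu copy at a looser e-value. Alignments below the lowest bit score of the matching peaks, or mostly inside a better one, were dropped. Neighbouring pieces in order, up to 30 nt apart, were joined. Genes were those of GENCODE 44, with introns numbered on MANE transcripts and promoters of 2000 nt. Intervals came from scipy 1.17.1 and counting used Python 3.11.15, numpy 2.4.6 and pandas 2.3.3. Scripts were tested on simulated data.

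Peaks and genes were named by a rule: the 5 best-scored members per treatment, up to 5 protein-coding genes with at least 2 members, members that overlap between treatments, the 5 best-scored members at exons or promoters, up to 15 genes with members after both treatments, and genes of the 5 lists. All members on exons of protein-coding genes, the best-scored ones that overlap SATB1, and AGGTCA were added after the data were seen. Alternatives changed the search, score, alignment share, copy number, annotation and overlap. The columns held no other per-sample values, and read totals were given only as a range for all samples, not for each library. The sequences of the members are not reported here.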

Additional observations from a re-analysis of the deposited data

How the results depend on the processing

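Of 86 values recomputed under alternatives, 48 stayed within the interval or within 1.5 times of the value given, and 38 moved. The Aβ share of Alu-matching peaks was above the vehicle share in 9 of 9 alternatives, with ratios of 1.69 to 2.55. The vehicle and Aβ shares were 3.54% and 7.56% at an e-value of 1e-10, 4.30% and 7.28% for peaks at or above the median score, 3.30% and 8.43% with at least 50% of the peak aligned, and 0.254% and 0.472% with megablast. Without multi-copy peaks the Aβ share was 8.92%. Alternatives chosen after seeing the data gave vehicle 5.89% without CATTC-rich peaks, vehicle 5.42% without CATTC-rich and multi-copy peaks, and 6.48% and 13.03% for at least 30 nt of a genomic copy.

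The right-arm share of vehicle members was 76.4% at or above the median score. The whole linker was covered by 30.7% of vehicle and 27.8% of Aβ members at an e-value of 1e-10, by 31.9% of vehicle members with at least 50% aligned, by 15.6% of vehicle members without multi-copy peaks, and by 19.9% of Aβ members at or above the median score. For protein-coding genes only, 49.4% and 51.4% of members lay in a gene and 5.06% and 6.74% in a promoter, and a shorter promoter window held 4.30% and 5.33%. Members shared between treatments numbered 9 and 6 without CATTC-rich and multi-copy peaks (chosen after seeing the data). Those shared with SATB1 numbered 14 and 16 without multi-copy peaks, and 12 and 15 without CATTC-rich peaks too. The median vehicle length was 129 nt with at least 50% aligned. In the aligned part alone, the A/T-rich pattern was in 33.3% and 33.4% of members and TCCAT or TCCCAT in 13.8% and 11.9%. By 36-mers, 50.6% and 55.6% were multi-copy. Where an alternative does not itself set the value, the cause was not tested. With 1 library per group, no library could be left out, and the lack of a read total for each library limits any comparison of peak numbers. No paired analysis was possible because each group has 1 library and no test was run.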
